A study of Homo sapiens with 2 samples.

Results

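The SOCS, PIAS and tyrosine phosphatase genes that restrain JAK-STAT signalling were read in Huh-7 cells, a human hepatoma line, after exposure to interferon-alpha. The 10 member genes are SOCS1, SOCS2, SOCS3, CISH, PIAS1, PIAS3, PTPN1, PTPN2, PTPN6 and PTPN11. Every probe set that the platform annotation gives to exactly 1 of these genes was taken, which left 36 probe sets of the 41091 with a single named gene, and 10 genes of 19775. The choice of members did not use their values on these arrays, although results of these arrays were known when the list was drawn up.

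The interferon culture received recombinant human IFN-alpha 2b at 100 U/mL for 6 hours, and the untreated culture had only its medium replaced; each had been cultured for 24 hours beforehand. Each condition is 1 culture of 1 line read on 1 array of biotin-labelled cRNA, so no difference has a replicate check and no test was possible. Values are the authors' intensities on a linear scale, and a difference is given as log2(interferon / untreated), called the log2 ratio. When the untreated cells were harvested is not stated in the labels used. RNA was taken from whole cultures, so fewer expressing cells and less RNA per cell cannot be told apart.

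Type I interferon binds a receptor of IFNAR1 and IFNAR2, whose attached kinases JAK1 and TYK2 phosphorylate STAT proteins, which then enter the nucleus and switch on interferon-stimulated genes. The pathway is held back at several levels. SOCS proteins and CISH are made in response to STATs, bind activated receptors or kinases through an SH2 domain and recruit a ubiquitin ligase through their SOCS box. PIAS proteins are SUMO ligases that bind STATs in the nucleus, and the phosphatases encoded by PTPN1 (PTP1B), PTPN2 (TC-PTP), PTPN6 (SHP1) and PTPN11 (SHP2) remove phosphate from kinases, receptors or STATs. In liver cells these brakes also act on interleukin, growth hormone and insulin signalling.

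The windows around the transcription starts of SOCS1 and CISH are shown because they were the member windows that held a searched motif, and that of ISG15 is shown as the window of a gene with a high ratio on the same arrays. The sequences are RefSeq's (GRCh38.p14), read 5′ to 3′ on the gene's strand from 250 bases before the start to 50 after it. The SOCS1 window is chr16:11256155-11256454 on the minus strand, the CISH window chr3:50611725-50612024 on the minus strand and the ISG15 window chr1:1013247-1013546 on the plus strand. Capitals mark the motifs TTCNNNGAA, which STAT dimers recognise, and GAAA, any 2 bases and GAAA again, on either strand, the core of the element that the interferon-activated STAT and IRF9 complex recognises.
SOCS1: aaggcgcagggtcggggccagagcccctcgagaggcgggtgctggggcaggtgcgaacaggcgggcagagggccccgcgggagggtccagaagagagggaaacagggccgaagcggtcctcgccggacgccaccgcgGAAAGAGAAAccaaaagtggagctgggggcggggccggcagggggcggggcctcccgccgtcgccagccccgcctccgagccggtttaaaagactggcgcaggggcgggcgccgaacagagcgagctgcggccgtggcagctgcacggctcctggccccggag
CISH: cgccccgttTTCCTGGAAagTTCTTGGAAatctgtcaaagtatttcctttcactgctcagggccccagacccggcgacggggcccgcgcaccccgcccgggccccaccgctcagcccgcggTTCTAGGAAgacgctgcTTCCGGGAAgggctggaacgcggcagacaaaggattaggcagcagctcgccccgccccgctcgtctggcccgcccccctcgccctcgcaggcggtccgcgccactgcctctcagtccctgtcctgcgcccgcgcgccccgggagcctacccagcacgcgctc
ISG15: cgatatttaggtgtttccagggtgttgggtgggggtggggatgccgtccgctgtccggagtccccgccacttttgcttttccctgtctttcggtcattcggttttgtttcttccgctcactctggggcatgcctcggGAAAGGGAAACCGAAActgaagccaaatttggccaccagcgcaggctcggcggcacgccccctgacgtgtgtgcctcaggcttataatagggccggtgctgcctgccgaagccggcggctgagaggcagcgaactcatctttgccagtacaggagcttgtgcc

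The SOCS1 window held 1 interferon core, starting 113 bases upstream of the start site, and the CISH window held 4 STAT motifs, starting 241, 230, 129 and 112 bases upstream. The ISG15 window held 2 interferon cores, which overlap each other, starting 113 and 107 bases upstream. Of other genes with a high ratio, the IFIT1 window held 2 interferon cores, and the IRF9 window held 0 and 1 STAT motif. Whether these motifs bear on the ratios was not tested. Of 35116 RefSeq windows of the same length, 7.66% held the STAT motif and 3.57% the interferon core. Windows were found for 8 of the 10 members, SOCS2 and PTPN11 being the others, and several members had more than 1 window. Of the 11 member windows 1 held a STAT motif and 1 an interferon core. A match describes letters in the window and is not a measured binding site, and the absence of a match covers these windows only.

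The treatment was visible on the arrays in the interferon-induced genes. Of 21 such genes counted in a list of 26, 19 had a ratio of 2-fold or more, 0 had one this far the other way, and the median log2 ratio was 3.06 after a floor was applied. The floor was an intensity of 48.46, the median of all values of both arrays, and lower values were raised to it before ratios were counted. Several of the 21 genes, such as IFIT1, MX1 and IFIH1, passed it on the interferon array only. These could not have been counted as falls, and their ratios are lower bounds of a rise. IFI27, IFI44 and IRF7 passed it on neither array, so the 21 leave them out. Among the listed genes that passed it on each array, log2 ratios on the brightest probe set ran from 2.53 (IFIT3) to 4.57 (ISG15). Hepatoma identity was also visible, since all 7 hepatocyte and hepatoma markers with a probe set, albumin and alpha-fetoprotein among them, were above the floor on both arrays. Of endothelial markers 2 of 5 passed the floor on 1 array or more, as did 5 of 6 stellate and fibroblast markers, and 0 of these passed 1.5-fold. Of 13269 genes counted, those above the floor on at least 1 array, 0.43% (57) reached 2-fold in the upward and 0% in the downward direction. After centring on the hybridisation controls, 18 spiked-in probe sets that were all brighter on the interferon array, these counts were 44 and 13.

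None of the 9 counted members reached 2-fold in either direction with the deposited scaling, so the members' shares of 0 stand beside backgrounds of 0.43% and 0%. The 9 genes had log2 ratios from -0.09 to 0.26 on the brightest probe set of each gene, with a median of 0.13, against a median of 0.03 over all genes counted. Ratios were above 0 in 5 members (SOCS1, PIAS3, PTPN2, PTPN6 and PTPN11; all 5 below 0 after centring on the hybridisation controls), exactly 0 in PIAS1 and below 0 in SOCS3, CISH and PTPN1. Of all genes that passed the floor on each array, 59.7% had a ratio above 0. SOCS2 passed the floor on neither array and was not counted.

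At the level of probe sets, 22 of the 36 passed the floor on each array and 14 on neither. Of the 22, 0 reached 2-fold, beside 0.364% upward and 0% downward over all counted probe sets with 1 gene. A SOCS1 probe set was the 1 that reached 1.5-fold upward, and 0 reached 1.5-fold downward. The shares over all counted probe sets were 0.754% and 0.0754%. Ratios above 0 were found in 13 of the 22, against 59.6% of all probe sets above the floor. The other 21 member probe sets lay within the central 95% of all probe sets above the floor, which ran from -0.285 to 0.325 and by its construction left 5.01% outside. That band describes these 2 arrays and is not a replicate error. The plot of intensities by probe set shows the small distance between the arrays for nearly every member.

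**Figure D1:**
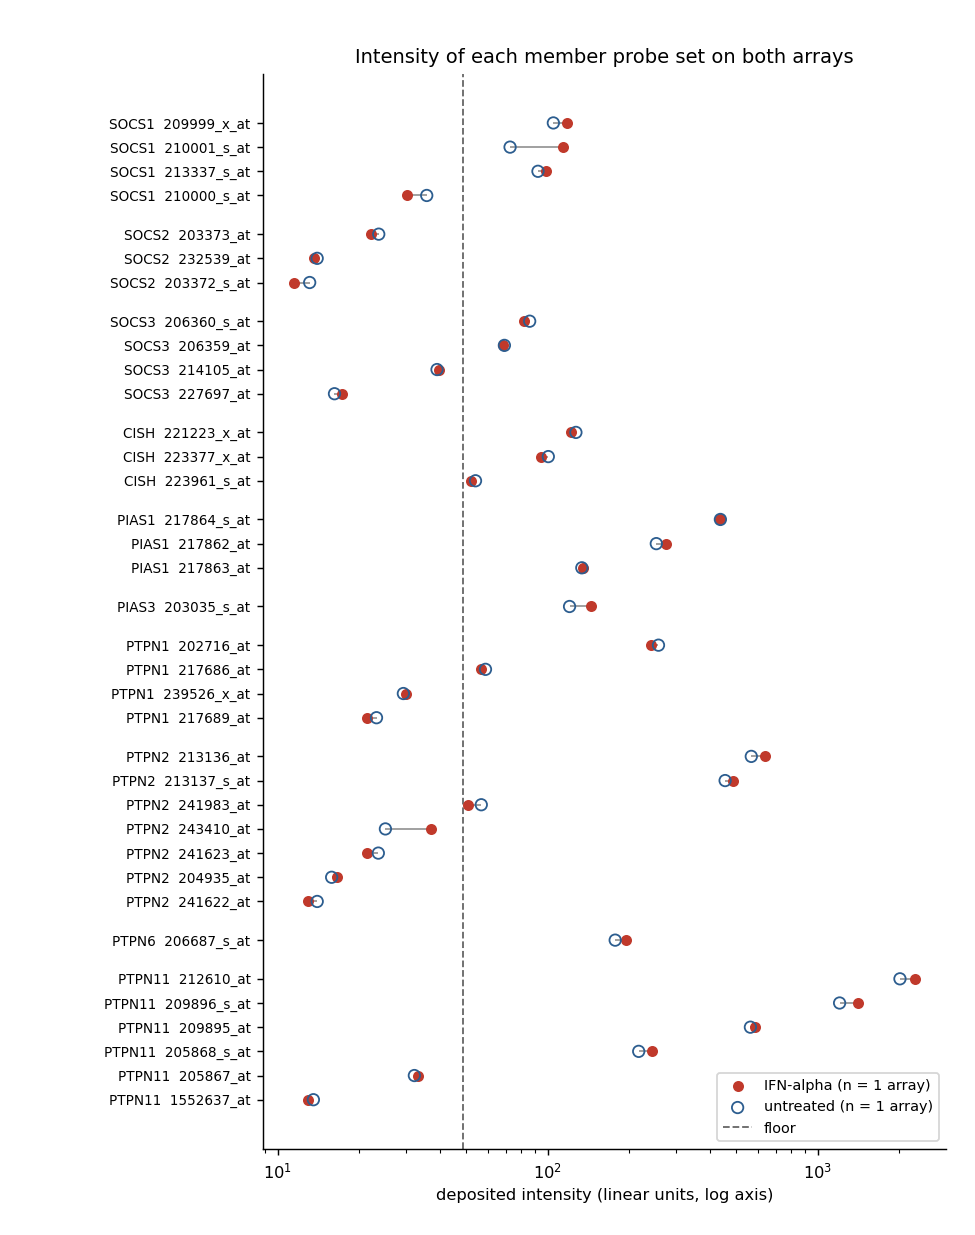
Deposited intensity (linear units on a log axis) of all 36 member probe sets, with the interferon array as filled and the untreated array as open circles, 1 array each, and the floor of 48.46 as a dashed line. The widest gap above the floor on the log axis is that of the SOCS1 probe set 210001_s_at, at 114 on the interferon array and 72.6 on the untreated array.

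SOCS1 encodes the inhibitor that binds JAK kinases and blocks their catalytic site. Its probe set 210001_s_at had an intensity of 114 on the interferon array and 72.6 on the untreated array, a log2 ratio of 0.65 or 1.57-fold. Over these arrays, 0.49% of all probe sets above the floor had a ratio as high or higher, and the central 95% of probe sets of like brightness ran from -0.37 to 0.38. The other probe sets of the gene had smaller ratios. 209999_x_at had 118 on the interferon array and 105 on the untreated array, a log2 ratio of 0.17. 213337_s_at had 98.3 on the interferon array and 92.1 on the untreated array, a log2 ratio of 0.09. The fourth, 210000_s_at, was below the floor at 30.1 on the interferon array and 35.7 on the untreated array.

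The 3 SOCS1 probe sets above the floor thus lay on the same side of 0, except after centring on the hybridisation controls, and spread over 0.56 on the log2 scale. Among the 1515 genes that also had 3 such probe sets, the median spread was 0.16, and 1.2% spread as widely or more. None of the SOCS1 probe sets was of the plain type ending in _at. Those ending in _s_at can match several transcripts and those ending in _x_at can cross-hybridise with other sequences. After centring on the hybridisation controls, which subtracts 0.43 from every log2 ratio of a probe set, 210001_s_at remained above 0 at 0.22 while the other probe sets above the floor stood at -0.26 and -0.33. The 1.5-fold call of 210001_s_at was lost there, and also with a pseudocount of 16 in place of the floor.

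SOCS3 encodes the inhibitor that binds the interleukin-6 receptor chain and its kinases. Probe set 206360_s_at had 81.9 on the interferon array and 85.8 on the untreated array, and 206359_at had 68.2 on the interferon array and 69.2 on the untreated array. The log2 ratios were -0.07 and -0.02, and that of 206359_at was 0.003 after median or lowess scaling. The remaining SOCS3 probe sets were below the floor, 214105_at at 39.6 on the interferon array and 39.0 on the untreated array and 227697_at at 17.3 on the interferon array and 16.2 on the untreated array.

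CISH, the founding member of the family and a STAT5-responsive gene, was the most uniform of the members with several probe sets above the floor. 221223_x_at had 122 on the interferon array and 127 on the untreated array. 223377_x_at had 94.8 on the interferon array and 101 on the untreated array. 223961_s_at had 51.9 on the interferon array and 54.1 on the untreated array. The 3 log2 ratios were -0.06, -0.09 and -0.06, a spread of 0.028, and 97.1% of genes with 3 probe sets above the floor spread as widely or more. All 3 were also below 0 after median, quantile, lowess and hybridisation control scaling, and all lay inside the central 95% of probe sets of like brightness. The 221223 and 223377 sets end in _x_at, so other sequences may share their signal.

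SOCS2, a feedback inhibitor of growth hormone signalling, was below the floor with all 3 of its probe sets on both arrays. Intensities ran from 11.5 to 22.2 on the interferon array and from 13.2 to 23.7 on the untreated array. The log2 ratios without the floor were -0.09, -0.03 and -0.19. Values this far under the floor give no measured direction.

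**Figure D2:**
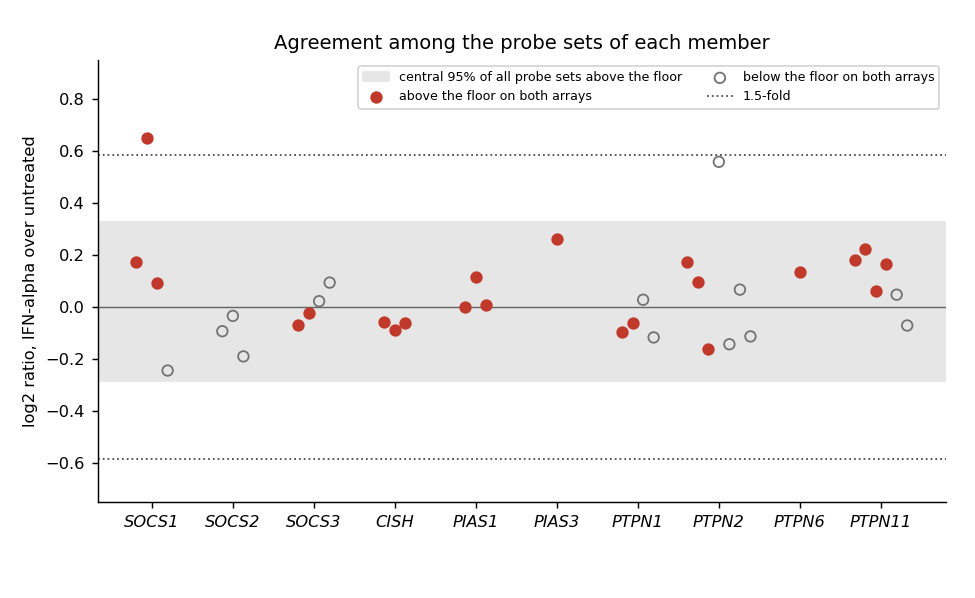
Log2 ratio (interferon over untreated) for each member probe set, grouped by gene, with probe sets above the floor filled and those below it open (1 array per condition). The grey band is the central 95% of all probe sets above the floor, and the SOCS1 probe set at 0.65 is the only filled point outside it.

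The PIAS genes encode SUMO ligases, of which PIAS3 acts on STAT3. PIAS1 had the same deposited value, 436.6, on both arrays for 217864_s_at. 217862_at had 274 on the interferon array and 253 on the untreated array, a log2 ratio of 0.12, and 217863_at had 135 on the interferon array and 134 on the untreated array, a log2 ratio of 0.01. Identical values on the arrays occurred in 2361 of 54675 probe sets, or 4.32%, and differences that were whole numbers within 1e-05, ties included, in 3291. Among the member probe sets 2 had such a difference, this one and 212610_at of PTPN11, whose values differed by 271. How these values arose is not given in the sources used here.

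PIAS3 was read by 1 probe set, 203035_s_at, with 145 on the interferon array and 121 on the untreated array. Its log2 ratio of 0.26 was the highest of the 9 counted members and stood above those of 96.1% of genes above the floor. The central 95% of probe sets of like brightness, -0.32 to 0.32, held it, and no other probe set was at hand to compare with. The ratio was 0.24 after quantile scaling and 0.26 after lowess scaling, and -0.17 after centring on the hybridisation controls.

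PTPN1 encodes PTP1B, which dephosphorylates TYK2, JAK2 and the insulin receptor. 202716_at had 241 on the interferon array and 258 on the untreated array, and 217686_at had 56.5 on the interferon array and 58.9 on the untreated array. The log2 ratios of -0.09 and -0.06 were below 0 under all 4 other scalings as well, and both lay inside the band of like brightness. Its other probe sets, 239526_x_at and 217689_at, were below the floor, with log2 ratios of 0.03 and -0.12.

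PTPN2 encodes the nuclear and endoplasmic phosphatase TC-PTP, which acts on STAT3 and JAK1. 213136_at had 641 on the interferon array and 568 on the untreated array, a log2 ratio of 0.17. 213137_s_at had 486 on the interferon array and 455 on the untreated array, a log2 ratio of 0.10. Close to the floor, 241983_at had 50.8 on the interferon array and 56.8 on the untreated array, a log2 ratio of -0.16. With the deposited scaling the PTPN2 probe sets above the floor therefore lay on opposite sides of 0, with a spread of 0.33. Of genes with as many probe sets, 11.6% spread as widely or more. With the floor at the 60th percentile, which 241983_at did not pass, the spread was 0.076. After centring on the hybridisation controls the ratios were all below 0, at -0.25, -0.33 and -0.59.

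The other 4 PTPN2 probe sets were below the floor. One of them, 243410_at, had 36.9 on the interferon array and 25.1 on the untreated array, which is a log2 ratio of 0.56 without the floor and 0.21 with the floor at the 40th percentile, 32.0. The other 3 ran from 13.0 to 21.4 on the interferon array and from 14.0 to 23.6 on the untreated array.

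PTPN6 encodes SHP1, known chiefly from blood cells but also made from an epithelial promoter. Its single probe set, 206687_s_at, had 195 on the interferon array and 178 on the untreated array, a log2 ratio of 0.13. Leukocyte markers stood beside it as follows: 5 of the 8 with a probe set passed the floor on 1 array or more, 3 on neither, and their summed intensity was 2662.6 on the interferon array and 2512.6 on the untreated array. Lysozyme (LYZ), with 2271 on the interferon array and 2064 on the untreated array, made up most of that sum and had a log2 ratio of 0.14. The other 4 counted markers had ratios below 0, of -0.24 (CD79A), -0.25 (CD14), -0.06 (SPI1) and -0.07 (ITGB2), and the list's median was -0.07. The defining markers PTPRC, at 17.0 on the interferon array and 19.2 on the untreated array, and CD3E, at 22.1 on the interferon array and 21.8 on the untreated array, were below the floor. What part such cells or markers have in the PTPN6 value was not tested.

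PTPN11 encodes SHP2, which removes phosphate from STATs and also promotes growth factor signalling through RAS. 212610_at had 2289.8 on the interferon array and 2019 on the untreated array, a log2 ratio of 0.18. Its other probe sets above the floor also had ratios above 0. 209896_s_at had 1409 on the interferon array and 1207 on the untreated array, a log2 ratio of 0.22. 209895_at had 588 on the interferon array and 564 on the untreated array, a log2 ratio of 0.06. 205868_s_at had 244 on the interferon array and 218 on the untreated array, a log2 ratio of 0.17. All 4 lay above 0 with the deposited scaling, though 1 was below 0 after quantile or lowess scaling and all after centring on the hybridisation controls, and they spread over 0.16, less than the median spread of 0.23 among the 639 genes with as many.

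Bright probe sets as a whole sat above 0 on these arrays: for 212610_at the central 95% of like brightness ran from 0.02 to 0.29, which held its ratio. After quantile scaling the 4 PTPN11 ratios ran from -0.02 to 0.13, and after centring on the hybridisation controls from -0.37 to -0.20. The 2 PTPN11 probe sets below the floor, 205867_at and 1552637_at, had log2 ratios of 0.05 and -0.07.

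**Figure D3:**
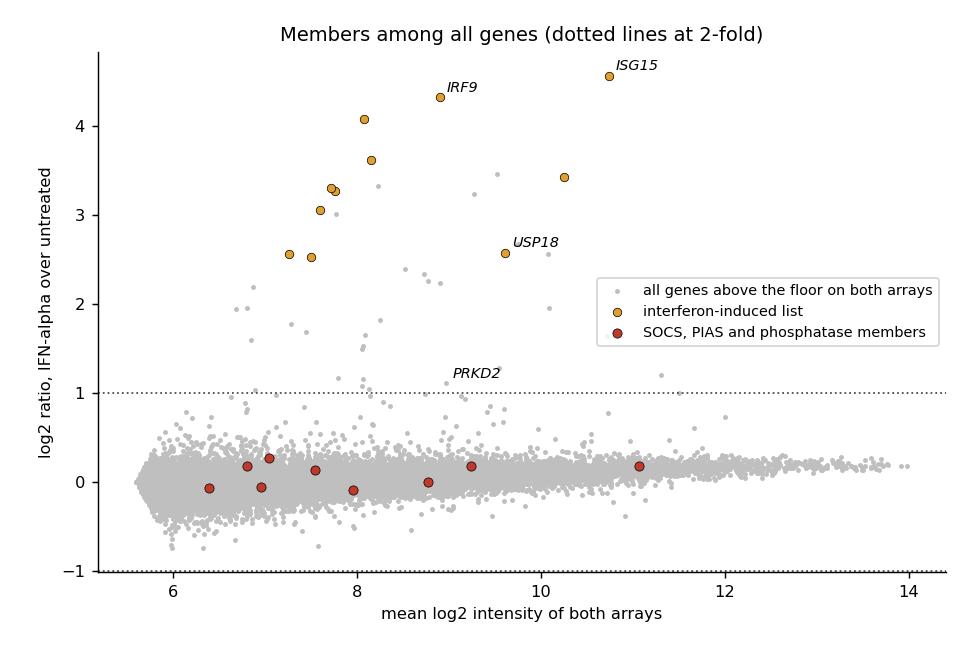
Log2 ratio (interferon over untreated) against mean log2 intensity for 12742 genes that passed the floor on each array (grey), with the 9 counted members in red and genes of the interferon-induced list in yellow. The members lie in the grey body between -0.09 and 0.26, and ISG15 (4.57), IRF9 (4.33) and USP18 (2.58) lie far above it.

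Relatives of the members also had small ratios. The other SOCS genes had log2 ratios of 0.04 (SOCS4), 0.05 (SOCS5), 0.05 (SOCS6) and 0.12 (SOCS7), and the other PIAS genes had -0.05 (PIAS2) and -0.08 (PIAS4). Among the subunits that the SOCS box recruits, the scaffold CUL5 had 0.12, the RING protein RNF7 -0.002 and the elongins ELOB and ELOC 0.12 and 0.11. Of the 6 counted partners in SUMO conjugation, the lowest was the protease SENP6 (-0.001) and the highest SAE1 (0.15), a subunit of the SUMO-activating enzyme. In these 4 lists 0 of 16 counted genes passed 1.5-fold in either direction, against 0.754% of all genes upward and 0.0829% downward.

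The other non-receptor tyrosine phosphatases had ratios around 0. Of 13 genes 10 were counted, with a median log2 ratio of 0.01, and 0 passed 1.5-fold in either direction. Of those measured above the floor on both arrays, PTPN18 was lowest at -0.19 (189 on the interferon array and 216 on the untreated array). Another PTPN18 probe set had 0.06. PTPN23 was highest at 0.11, although its other probe set above the floor had -0.19. PTPN7 had 37.0, under the floor, on the interferon array and 50.5 on the untreated array, so that its log2 ratio of -0.06 after the floor is only a bound (-0.45 without the floor). PTPN13, PTPN20 and PTPN22 were below the floor on both arrays.

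In a list of other brakes on interferon receptor signalling, 3 of 9 counted genes passed 2-fold upward and 0 downward, beside 0.43% and 0% of all genes counted. USP18, which binds IFNAR2 and displaces JAK1, had 1908 on the interferon array and 320.2 on the untreated array, or 5.96-fold. ISG15, a ubiquitin-like modifier that stabilises USP18 in human cells, was 23.7-fold higher. USP18 and ISG15 are also in the list of interferon-induced genes, so their ratios are no separate evidence. PRKD2, a kinase that marks IFNAR1 for removal from the cell surface, had 733 on the interferon array and 341 on the untreated array, or 2.15-fold. Its log2 ratio of 1.11 was 0.68 after centring on the hybridisation controls, which is under 2-fold, while those of USP18 and ISG15 stayed past it at 2.15 and 4.14.

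The other brakes in that list were under 1.5-fold. IRF2, a repressor that competes for interferon response elements, had 78.0 on the interferon array and 55.9 on the untreated array, a log2 ratio of 0.48. The ubiquitin ligase genes CBL (0.26), SKP2 (0.18), CBLB (0.15) and BTRC (0.03) and the STAT ligase gene PDLIM2 (-0.07) had smaller ones on their brightest probe sets. The CBL probe sets above the floor ran from 0.14 to 0.41, the latter above the central 95% of all probe sets above the floor. Within these arrays the brakes past 2-fold were thus USP18, ISG15 and PRKD2, and no SOCS, PIAS or PTPN gene was among them. Both lists were chosen with earlier results of these arrays known, so the contrast between them is a description and not a test. The interferon array was read at 6 hours only, and earlier or later times of treatment were not measured.

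Genes of the proteins on which the members act had small ratios except IRF9. Of 12 counted receptor, JAK and STAT genes 1 passed 2-fold: IRF9, the DNA-binding partner of the STATs, had 2143 on the interferon array and 107 on the untreated array. On their brightest probe sets, IFNAR1 (-0.10), IFNAR2 (-0.11), JAK1 (0.12), TYK2 (0.01), STAT3 (0.08), STAT5B (-0.01) and STAT6 (-0.02) had log2 ratios near the median of all genes. Another STAT6 probe set above the floor had -0.36, below the central 95% of all probe sets above the floor, and another of STAT3 had 0.27. IFNAR2 was the lowest of the list, although another of its probe sets had 0.27, and IFNGR1 (0.26), a chain of the interferon-gamma receptor, was the highest after IRF9. STAT4 and JAK2 were below the floor on both arrays.

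**Figure D4:**
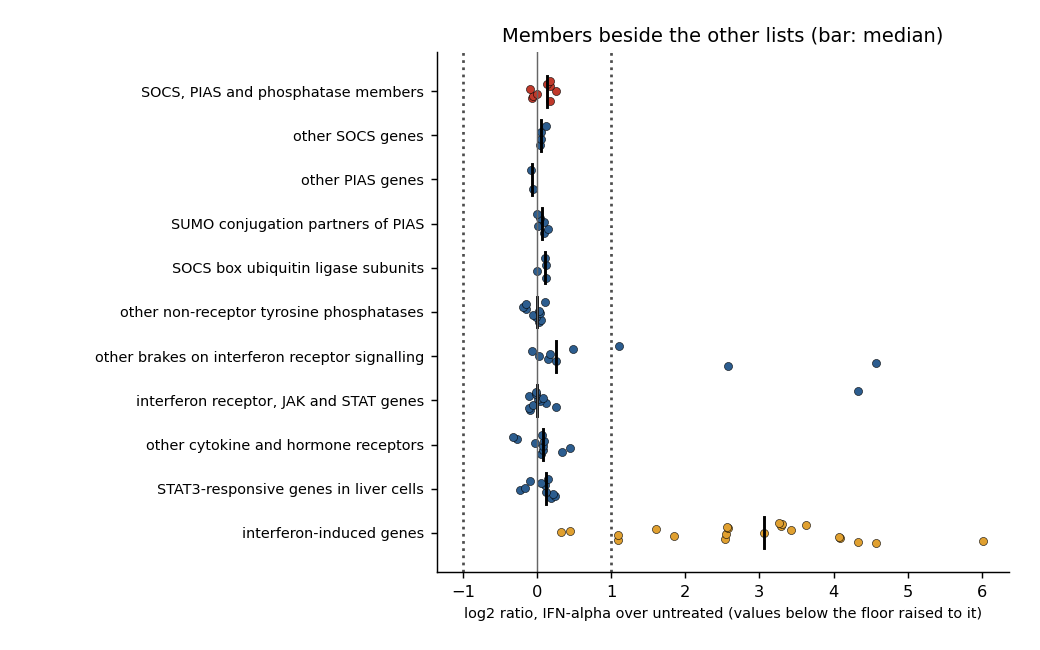
Log2 ratio (interferon over untreated) for each counted gene of 11 lists, with values below the floor raised to it and a bar at each list's median (1 array per condition). The 9 members lie around a median of 0.13, whereas the interferon-induced genes lie around 3.06.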

How the data were processed

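RNA of 1 interferon-treated and 1 untreated Huh-7 culture was measured on 1 Affymetrix array each, from 6 µg of total RNA per the labels' protocols. The authors deposited 1 linear intensity for each probe set and array. GCOS is named per the submitters' processing notes, with no version; how background, probe summary and scaling were handled is not given in the sources used here. Of 54675 probe sets, 62 were controls, 41091 had 1 annotated gene, 1801 had several and 11721 had none named; symbols of 41037 were updated through the gene ID in RefSeq's table. On the interferon array 49.81% and on the untreated array 50.19% of values passed the floor (50th percentile). Each gene was represented by its brightest probe set, by mean log2 over the arrays. The number of arrays limits the precision.

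The members and lists were chosen with earlier results of these data known. Named were all members with their probe sets and, of other lists, genes past 1.5-fold, the highest and lowest, and up to 4 examples of a role; genes of like pattern cannot be ranked over 2 arrays. Bands of like brightness are the central 95% of log2 ratios in 20 equal groups of probe sets. The procedure was tested on simulated data with rises set into bright genes only, so that test does not cover dimmer members such as SOCS1, SOCS3 and CISH. Alternatives were median, quantile and lowess (span 0.3) scaling, centring on 18 hybridisation controls, other floors, a pseudocount of 16 and other choices of probe set. Python 3.11.15, pandas 2.3.3, numpy 2.4.6 and statsmodels 0.14.6 were used.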

Additional observations from a re-analysis of the deposited data

How the results depend on the processing

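No paired analysis was possible because each condition has 1 array. The counts of members past 2-fold upward and downward were 0 each under all 10 alternatives. The count of member probe sets past 1.5-fold upward, 1 as reported, was 0 after centring on the hybridisation controls, 0 with a pseudocount of 16 and no floor, and 0 without probe sets ending in _x_at, _s_at or _a_at, which removes every SOCS1 probe set and leaves 5 members. The count past 1.5-fold downward, 0 as reported, was 1 after centring on the hybridisation controls, which moved the median of all genes to -0.39. The median of the members, 0.13 as reported, was -0.29 after that centring and ran from 0.04 to 0.16 under the other alternatives. After quantile scaling the ratio of PTPN11 was 0.04. With a 60th-percentile floor of 73.78, the untreated value of the SOCS1 probe set 210001_s_at fell under the floor and its ratio became a bound. Signal over background limits the 14 member probe sets under the floor, all of SOCS2 included. Every log2 ratio between 0 and 0.43 was below 0 after centring on the hybridisation controls.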

Other observations

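Receptors of other hormones and cytokines that SOCS proteins restrain included no gene past 1.5-fold among 10 counted. The highest were OSMR, the oncostatin M receptor, with 310 on the interferon array and 227 on the untreated array (log2 ratio 0.45), and IL6ST, the shared signalling chain of the interleukin-6 family, with 1392 on the interferon array and 1104 on the untreated array (0.33). IL6R had 0.05, LIFR 0.08, INSR 0.10 and GHR 0.08. EPOR had -0.27, and IL2RG was under the floor on the interferon array at 45.7 and had 60.4 on the untreated array.

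Of 10 counted genes that respond to STAT3 in liver cells, 0 passed 1.5-fold, and the median log2 ratio was 0.12. The fibrinogen chain genes FGA (0.19), FGB (0.25) and FGG (0.21) were the highest, although another FGA probe set had -0.04. They were bright, FGA with 8486 on the interferon array and 7430 on the untreated array. The 7 hepatocyte and hepatoma markers had a median log2 ratio of 0.17. LBP, the lipopolysaccharide-binding protein gene, was under the floor on the interferon array at 37.5 and had 56.9 on the untreated array. JUNB had 0.06, PIM1 -0.10 and BCL2L1 0.15, and CRP was below the floor on both arrays.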
